A study of Rattus norvegicus with 6 samples.

Results

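The genes of endoplasmic reticulum (ER) translocation, protein folding and vesicle coats were followed in rat bone marrow mesenchymal stem cells (BMSCs) under hypoxia and nutrient deprivation. They were chosen by gene name, with earlier results of these data known. The names taken were those of the Sec proteins numbered from Sec11 upward, the translocon-associated Ssr proteins, the signal recognition particle (Srp), the signal peptidase subunits Spcs1 to Spcs3, the protein disulfide isomerases Pdia3 to Pdia6, the p24 proteins (Tmed), the COPI subunits, and Xbp1, Ern1, Atf6, Calr, Canx, P4hb and Sel1l. The names matched 68 of the 33508 rows of the count table, all annotated as protein coding, and 62 of them were among the 12104 genes with enough counts to test. The 4 Sec14-like rows, which are lipid-binding proteins of the Sec14 family, entered only through their names and are given separately at the end.

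In both groups, BMSCs came from the hind-limb marrow of male Sprague–Dawley rats aged 2 months, were passaged 3 times, and were exposed for 72 h to lentivirus (multiplicity of infection 10). BMSCs-OE-FNDC5 received lentivirus carrying rat FNDC5, a membrane protein that is cleaved to release Irisin, and BMSCs-OE-NC received blank lentivirus. All 6 libraries, 3 per group, came from cells kept for 24 h in glucose-free and serum-free medium under 1% O2, 94% N2 and 5% CO2 (H/SD), so the values hold for H/SD only. The labels call the libraries biological replicates but do not say whether they came from separate rats or cultures, so p-values measure the spread between these libraries. The comparison asked how these mRNAs differed between BMSCs-OE-FNDC5 and BMSCs-OE-NC under H/SD.

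Proteins destined for secretion or for membranes are recognized by the signal recognition particle as they leave the ribosome and are threaded through the Sec61 channel into the ER, where signal peptidase removes the targeting peptide and chaperones and disulfide isomerases fold the chain. Folded cargo leaves the ER in vesicles coated by COPII, and escaped ER proteins return from the Golgi in vesicles coated by COPI. When unfolded proteins accumulate, the sensors Ern1 (IRE1α), Atf6 and PERK set off the unfolded protein response (UPR), and Sel1l helps send misfolded chains to ER-associated degradation (ERAD). BMSCs secrete collagen and other matrix proteins, which depend on this route.

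The libraries held 16640635 to 17229490 counts in BMSCs-OE-FNDC5 and 17430287 to 17965722 counts in BMSCs-OE-NC. The transgene was visible in each of them, with Fndc5 counts of 65589, 64672 and 64195 in BMSCs-OE-FNDC5, against 22, 17 and 25 in BMSCs-OE-NC. Levels are given as TMM-scaled CPM, which divides counts by library size, and, where genes are compared with each other, as the deposited FPKM values, which divide by gene length. The TMM factors, which correct each library for its composition, were 0.877 to 0.882 in BMSCs-OE-FNDC5 and 1.13 to 1.14 in BMSCs-OE-NC. All 7 mesenchymal stem cell markers passed the count filter, with a summed level of 2096 to 2143 CPM in BMSCs-OE-FNDC5 and 3261 to 3279.9 CPM in BMSCs-OE-NC. They did not move together, since Thy1 (1.29), Cd44 (0.41) and Eng (0.26, but -0.11 under library-size scaling) had positive log2 fold changes and Pdgfra (-1.86), Pdgfrb (-1.62), Nt5e (-1.31) and Itgb1 (-1.02) negative ones. Markers of other cells were low, with at most 0.152 CPM in any library for blood cells and 0.397 CPM for endothelium. The 5 macrophage markers summed to 198 to 206 CPM in BMSCs-OE-FNDC5 and 98.1 to 103 CPM in BMSCs-OE-NC, nearly all of it Cd14, with Adgre1 and Cd163 at 0. The 4 epithelial markers summed to 2.66 to 4.17 CPM in BMSCs-OE-FNDC5 and 1.52 to 2.02 CPM in BMSCs-OE-NC, with 3 of them at 0. The part of these markers in the results was not tested, and fewer cells of a type cannot be told apart from less RNA per cell.

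The members differed between BMSCs-OE-FNDC5 and BMSCs-OE-NC in both directions. The members with the largest rises were Sec61g and Ssr4 of the translocon, the p24 protein Tmed1 and the COPI subunit Cope, each at 2.06-fold to 2.43-fold the level of BMSCs-OE-NC. Most COPII subunits, the disulfide isomerases Pdia3, Pdia4 and Pdia6, calnexin, Sec62 and Sec63 and the UPR sensors Ern1 and Atf6 were lower under TMM scaling, and the largest falls were those of Sec24a, Tmed5 and Copb1 at 0.356-fold to 0.366-fold. At an adjusted p under 0.05 by edgeR's quasi-likelihood test with Benjamini-Hochberg adjustment, 20 of the 62 tested members were higher in BMSCs-OE-FNDC5 (32.3%), where 36.9% of all genes tested were, and 29 were lower (46.8%), where 38.8% of all genes tested were. In either direction, 49 members were called (79.0%), against 75.7% of all genes, and the remaining 13 did not pass the test. Log2 fold changes are given ± the standard error of the fit. These shares were near those of all genes, and the median log2 fold change was -0.05 for the members and -0.04 for all genes tested. Under scaling by library size alone, which shifts the median of all genes by -0.37 on the log2 scale, 11 members were higher and 43 lower, where 22.0% and 55.4% of all genes were. With a further threshold of an absolute log2 fold change over 1, 4 members were higher (background 9.84%) and 9 were lower (background 17.5%), 13 in all (background 27.4%). The 3 libraries of BMSCs-OE-FNDC5 did not overlap with the 3 of BMSCs-OE-NC in 51 tested members (background 78.3%).

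**Figure D1:**
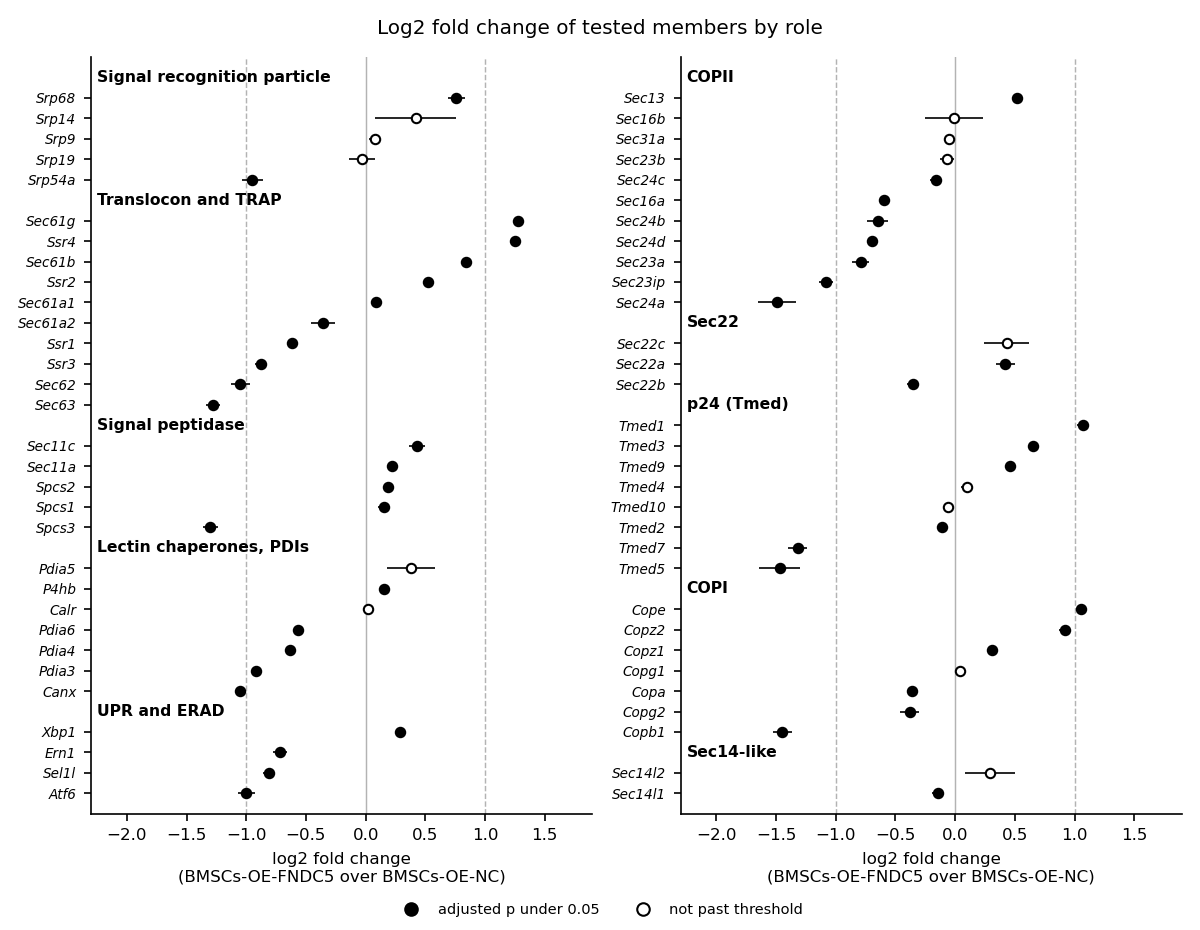
Log2 fold change of BMSCs-OE-FNDC5 over BMSCs-OE-NC (x axis, TMM scaling) for the 62 tested members, grouped by role and ordered by value within a role. Points are edgeR estimates with bars of 1 SE, filled where the adjusted p is under 0.05, and dashed lines mark a log2 fold change of 1 in either direction. Values run from -1.49 for Sec24a to 1.28 for Sec61g, and most roles hold members on both sides of 0.

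Of the 5 tested proteins of the signal recognition particle, 1 was higher and 1 was lower, where 36.9% and 38.8% of all genes tested were. Srp68, which binds the particle's RNA together with Srp72, stood at 151, 136 and 170.1 CPM in BMSCs-OE-FNDC5, against 93.6, 88.3 and 87.7 CPM in BMSCs-OE-NC (log2 fold change 0.76 ± 0.07, edgeR adjusted p = 1.3e-06). Every BMSCs-OE-FNDC5 library was above every BMSCs-OE-NC library, although replicates 2 and 3 of BMSCs-OE-FNDC5 differed from each other more than any BMSCs-OE-NC pair did. Srp54a, the GTPase that recognizes the signal sequence, went the other way, with 10.9, 11.1 and 11.5 CPM in BMSCs-OE-FNDC5, against 23.0, 20.7 and 21.1 CPM in BMSCs-OE-NC (log2 fold change -0.95 ± 0.09, edgeR adjusted p = 2.7e-06). Its groups also did not overlap. Srp19, which helps assemble the particle, and the Alu-domain proteins Srp9 and Srp14 had log2 fold changes of -0.03, 0.08 and 0.42 and did not pass the test. Srp14 had 26, 12 and 25 counts in BMSCs-OE-FNDC5, against 22, 22 and 19 counts in BMSCs-OE-NC, and it overlaps Eif2ak4 on the opposite strand, which had a mean of 438 counts per library and a log2 fold change of -1.11. The strand setting of the counting is not given in the sources used here. Reads in the stretch shared by Srp14 and Eif2ak4 therefore cannot be told apart, and the extent of that stretch was not measured.

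The Sec61 channel and its neighbours split evenly, with 5 of 10 members higher and 5 lower, where 36.9% and 38.8% of all genes tested were. None overlapped between the groups, where 78.3% of all genes tested did not. The channel pore itself, Sec61a1, was almost level between the groups, with 559, 562 and 568 CPM in BMSCs-OE-FNDC5, against 534, 524 and 532 CPM in BMSCs-OE-NC (log2 fold change 0.09 ± 0.02, edgeR adjusted p = 0.0058), and this small difference turned negative under library-size scaling (-0.28) and under upper-quartile scaling (-0.02). The small tail-anchored subunits moved far more. Sec61g (γ, ENSRNOG00000005203) had 453, 439 and 479 CPM in BMSCs-OE-FNDC5, against 193, 183 and 187 CPM in BMSCs-OE-NC (log2 fold change 1.28 ± 0.04, edgeR adjusted p = 9.2e-11). Sec61b (β) was also higher, at a log2 fold change of 0.84. Per unit of length Sec61g was the most abundant of the 10, with 1032 ± 46.0 FPKM in BMSCs-OE-FNDC5 and 417 ± 10.4 FPKM in BMSCs-OE-NC (SD, n = 3 each).

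The second pore gene, Sec61a2, had 16.2, 17.0 and 19.4 CPM in BMSCs-OE-FNDC5, against 21.5, 24.5 and 21.6 CPM in BMSCs-OE-NC (log2 fold change -0.36 ± 0.10, edgeR adjusted p = 0.0059). All its BMSCs-OE-FNDC5 libraries were below all its BMSCs-OE-NC libraries. Sec62 and Sec63 assist chains that enter the ER after translation, Sec63 by recruiting the chaperone BiP (Hspa5) to the channel. Sec63 fell to 29.8, 28.8 and 30.3 CPM in BMSCs-OE-FNDC5, against 76.2, 67.6 and 71.5 CPM in BMSCs-OE-NC (log2 fold change -1.28 ± 0.06, edgeR adjusted p = 2.9e-09). Sec62 fell by 1.05 on the log2 scale. The 3 Sec63 values in BMSCs-OE-FNDC5 lay close together, far below the lowest BMSCs-OE-NC value.

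The translocon-associated protein (TRAP) complex, which sits beside the channel and helps some chains to enter, consists of Ssr1 to Ssr4 (α, β, γ and δ). Its subunits parted into a higher pair and a lower pair. Ssr4 had 474, 467 and 469 CPM in BMSCs-OE-FNDC5, against 195, 192 and 204 CPM in BMSCs-OE-NC (log2 fold change 1.25 ± 0.03, edgeR adjusted p = 2.9e-11), and Ssr2 had 478, 476 and 481 CPM in BMSCs-OE-FNDC5, against 345, 323 and 336 CPM in BMSCs-OE-NC (log2 fold change 0.52 ± 0.03, edgeR adjusted p = 2.6e-08). Ssr1 had 67.9, 65.7 and 66.5 CPM in BMSCs-OE-FNDC5, against 108, 100.2 and 99.8 CPM in BMSCs-OE-NC (log2 fold change -0.62 ± 0.04, edgeR adjusted p = 1.3e-07), and Ssr3 had a log2 fold change of -0.88. Ssr2 and Ssr4 are the shorter genes, at 1452 and 732 bases, and Ssr1 and Ssr3 are the longer, at 2721 and 2555 bases.

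Under TMM scaling 4 of 5 signal peptidase subunits were higher, all by small amounts, and 1 was lower. Of all genes tested, 36.9% were higher and 38.8% lower. Under library-size scaling 0 subunits were higher and 4 lower, where 22.0% and 55.4% of all genes were. With the length trend removed 1 subunit was higher and 3 were lower, where 38.4% and 33.5% of all genes were. The catalytic subunit Sec11a had 183, 186 and 185 CPM in BMSCs-OE-FNDC5, against 164, 158 and 152 CPM in BMSCs-OE-NC (log2 fold change 0.22 ± 0.03, edgeR adjusted p = 0.00012), and its direction turned with the gene length trend removed (-0.12) and under library-size scaling (-0.15). The other catalytic subunit, Sec11c, had 26.0, 24.4 and 25.8 CPM in BMSCs-OE-FNDC5, against 19.0, 18.5 and 19.0 CPM in BMSCs-OE-NC (log2 fold change 0.43 ± 0.07, edgeR adjusted p = 0.00028), which became -0.08 with the length trend removed. The accessory subunits Spcs1 and Spcs2 had log2 fold changes of 0.15 and 0.19, which both turned negative under library-size scaling (-0.22 and -0.18), as Spcs1 also did with the length trend removed (-0.33). Spcs1 missed the threshold without replicate 2 of BMSCs-OE-NC (log2 fold change 0.10, edgeR adjusted p = 0.055). Spcs3, an accessory subunit as well, was the exception and fell to 21.9, 22.5 and 23.6 CPM in BMSCs-OE-FNDC5, against 58.4, 51.9 and 56.8 CPM in BMSCs-OE-NC (log2 fold change -1.30 ± 0.06, edgeR adjusted p = 6.3e-09). Spcs3 stayed lower under each alternative scaling and with the length trend removed (-0.95).

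**Figure D2:**
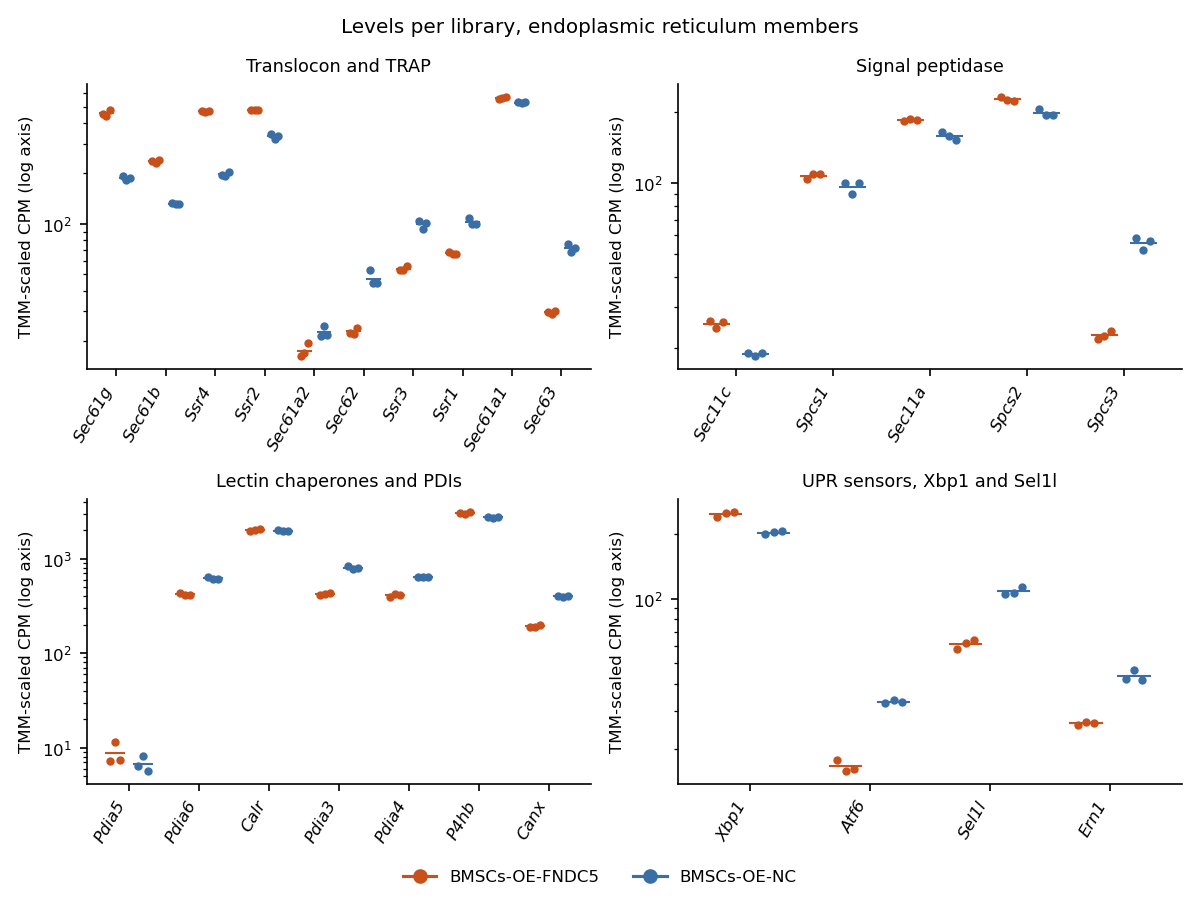
TMM-scaled CPM on a log axis in each library of BMSCs-OE-FNDC5 (orange, left of each pair) and BMSCs-OE-NC (blue, right), with genes ordered from short to long within a panel and horizontal lines at the group mean. The translocon panel shows the short genes Sec61g, Sec61b, Ssr4 and Ssr2 higher in BMSCs-OE-FNDC5 and Sec63 lower, and Calr and P4hb, the most abundant members, nearly level between the groups under TMM scaling, although both were lower under library-size scaling (-0.35 and -0.22).

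Among the 7 folding genes, 1 was higher and 4 were lower, where 36.9% and 38.8% of all genes tested were. The other 2 did not pass the test, and the median log2 fold change was -0.57, against -0.04 for all genes tested. P4hb encodes the classical protein disulfide isomerase, which is also the β subunit of collagen prolyl 4-hydroxylase, and it was the most abundant member, at 1225 ± 22.3 FPKM in BMSCs-OE-FNDC5 and 1082 ± 13.4 FPKM in BMSCs-OE-NC (SD, n = 3 each). It had 3053, 2989 and 3098 CPM in BMSCs-OE-FNDC5, against 2773, 2706 and 2739 CPM in BMSCs-OE-NC (log2 fold change 0.15 ± 0.02, edgeR adjusted p = 2e-05), a difference that turned to -0.22 under library-size scaling. Calreticulin (Calr), the soluble lectin chaperone of the ER, had 1981, 1989 and 2056 CPM in BMSCs-OE-FNDC5, against 2029, 1951 and 1956 CPM in BMSCs-OE-NC (log2 fold change 0.02 ± 0.02, edgeR adjusted p = 0.4). Its groups overlapped, and it came out lower with the length trend removed (-0.08), under upper-quartile scaling (-0.08) and under library-size scaling (-0.35). P4hb and Calr gave 21.4% and 14.1% of all member counts in BMSCs-OE-FNDC5, against 20.0% and 14.4% in BMSCs-OE-NC.

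Calnexin (Canx, ENSRNOG00000003343), the membrane-bound lectin that binds the same sugar-tagged chains as calreticulin, fell to 190.28, 190.54 and 200.05 CPM in BMSCs-OE-FNDC5, against 405.77, 395.45 and 404.64 CPM in BMSCs-OE-NC (log2 fold change -1.05 ± 0.03, edgeR adjusted p = 9.9e-11). Each group's libraries lay close together, and the groups were far apart. Pdia3 (ERp57), the disulfide isomerase that works with both lectins, had a log2 fold change of -0.92, and Pdia4 and Pdia6, both chaperone-associated isomerases, had -0.63 and -0.57. All 3 were still lower with the length trend removed (-1.02, -0.56 and -0.71). Pdia3 overlaps Mfap1a on the opposite strand, whose counts were 2.94% of those of Pdia3. Pdia5, with 5.66 to 11.5 CPM, did not pass the test.

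Of the UPR and ERAD genes, Xbp1 was higher and the other 3 were lower, where 36.9% and 38.8% of all genes tested were. Ern1 encodes the sensor that splices Xbp1 mRNA into its active form, and gene counts do not separate the spliced from the unspliced form. Ern1 had 25.8, 26.8 and 26.6 CPM in BMSCs-OE-FNDC5, against 42.3, 46.7 and 41.7 CPM in BMSCs-OE-NC (log2 fold change -0.72 ± 0.06, edgeR adjusted p = 9.8e-07), and with the length trend removed its log2 fold change was 0.11 and no longer passed the test. Xbp1, the transcription factor made from that mRNA, had 238, 249 and 251 CPM in BMSCs-OE-FNDC5, against 199, 202 and 205 CPM in BMSCs-OE-NC (log2 fold change 0.29 ± 0.03, edgeR adjusted p = 7.2e-06), but turned to -0.10 with the length trend removed and to -0.08 under library-size scaling. Neither gene's groups overlapped under TMM scaling.

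Atf6, the sensor that is cut in the Golgi to free a transcription factor, had 17.9, 15.8 and 16.2 CPM in BMSCs-OE-FNDC5, against 32.7, 33.7 and 33.2 CPM in BMSCs-OE-NC (log2 fold change -0.998 ± 0.07, edgeR adjusted p = 2.8e-07). All its BMSCs-OE-FNDC5 libraries were below all its BMSCs-OE-NC libraries, with little spread in either group, and it was still lower with the length trend removed (-0.43). Sel1l, the adaptor of the Hrd1 ubiquitin ligase in ERAD, had 58.3, 62.1 and 64.4 CPM in BMSCs-OE-FNDC5, against 105, 106 and 113 CPM in BMSCs-OE-NC (log2 fold change -0.81 ± 0.05, edgeR adjusted p = 3.5e-08). With the length trend removed, Sel1l was close to 0 (-0.02) and did not pass the test.

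Xbp1 and Atf6 are known to act through short elements, the ER stress response element (ERSE, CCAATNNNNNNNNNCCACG), ERSE-II (ATTGGNCCACG) and the UPR element (UPRE, TGACGTGG). The promoters of Calr, Canx and Xbp1 are shown because they held an ERSE. RefSeq promoters of the rat build GRCr8, from 250 bases before to 50 bases after the transcription start, were found by symbol for 59 of the 68 members and 54 of the 62 tested. No promoter was found for the tested members Atf6, Ern1, Pdia3, Pdia6, Sec61a1, Sec61a2, Sec24c and Sec24d, so these were not searched. On both strands, with overlaps allowed, ERSE was present in 3 of the 54, Calr, Canx and Xbp1, and in 0.0765% of all 27457 promoters in the table. All promoters include those of genes not tested here, and no share was computed for tested genes alone. The matches are in capitals in the sequences below, which run from 5′ to 3′ on the strand of the gene.

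Calr: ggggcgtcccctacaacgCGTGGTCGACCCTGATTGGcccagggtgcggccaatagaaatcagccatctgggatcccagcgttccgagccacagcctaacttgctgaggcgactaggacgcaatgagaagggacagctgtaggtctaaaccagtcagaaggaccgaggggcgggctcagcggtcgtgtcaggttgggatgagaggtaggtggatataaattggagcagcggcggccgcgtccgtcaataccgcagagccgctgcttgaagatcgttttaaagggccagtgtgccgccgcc
Canx: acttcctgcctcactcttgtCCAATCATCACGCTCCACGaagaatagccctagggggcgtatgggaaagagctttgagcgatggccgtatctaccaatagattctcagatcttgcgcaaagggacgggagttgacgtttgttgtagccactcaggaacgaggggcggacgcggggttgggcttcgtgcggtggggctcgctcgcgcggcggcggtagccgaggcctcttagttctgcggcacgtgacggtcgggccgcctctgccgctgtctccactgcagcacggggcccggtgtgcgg
Xbp1: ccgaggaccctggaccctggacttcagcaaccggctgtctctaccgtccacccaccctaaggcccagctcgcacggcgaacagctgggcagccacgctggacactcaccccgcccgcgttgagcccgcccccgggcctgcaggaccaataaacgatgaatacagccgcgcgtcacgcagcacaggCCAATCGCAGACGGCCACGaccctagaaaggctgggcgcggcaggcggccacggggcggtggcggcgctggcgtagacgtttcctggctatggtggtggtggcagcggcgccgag

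The Calr window is chr19:40213117-40213416 on the plus strand, with the match on the opposite strand 232 to 214 bases before the start. The Canx window is chr10:35157808-35158107 on the minus strand, with the match 230 to 212 bases before the start. The Xbp1 window is chr14:84604373-84604672 on the plus strand, with the match 65 to 47 bases before the start. Under TMM scaling these 3 genes had log2 fold changes of 0.02, -1.05 and 0.29, that is, level, lower and higher. Across all 16 tested genes with an ERSE match, 4 were higher and 9 lower, where 36.9% and 38.8% of all genes tested were. Their median log2 fold change was -0.49, against -0.04 for all genes tested. The 16 include Calr, Canx and Xbp1 and the ER chaperones Hspa5 and Hsp90b1, which are also given singly in this text. ERSE-II was in none of the 54 and in 0.0546% of all promoters. A match is only a run of letters, and binding was not measured.

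COPII subunits were mostly lower, with 7 of 11 tested members lower and 1 higher, where 38.8% and 36.9% of all genes tested were. The other 3 did not pass the test, and the median log2 fold change was -0.60. COPII members are also long genes, with a median length of 4356 bases against 2262 for all genes tested. Of all genes of 3332 to 8889 bases, 63.5% were lower, with a median of -0.58. With the length trend removed 4 COPII members were higher and 4 lower, where 38.4% and 33.5% of all genes were. The COPII median was then 0.12. Sec13, which builds the outer cage with Sec31 and is also a nuclear pore subunit, was the exception, with 169.6, 167 and 158 CPM in BMSCs-OE-FNDC5, against 110.5, 119 and 116 CPM in BMSCs-OE-NC (log2 fold change 0.52 ± 0.04, edgeR adjusted p = 3.3e-07). Sec31a, its cage partner, had 214, 216 and 216 CPM in BMSCs-OE-FNDC5, against 212, 228 and 228 CPM in BMSCs-OE-NC (log2 fold change -0.05 ± 0.03, edgeR adjusted p = 0.22), and its groups overlapped. With the length trend removed Sec31a came out higher (0.50). Sec31b stayed at or below 0.197 CPM in every library and was not tested.

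The inner coat pairs Sec23, which activates the GTPase Sar1, with Sec24, which picks the cargo. Sec23a had 22.8, 25.5 and 22.5 CPM in BMSCs-OE-FNDC5, against 38.4, 41.5 and 42.7 CPM in BMSCs-OE-NC (log2 fold change -0.79 ± 0.07, edgeR adjusted p = 1.4e-06). Sec23b had 46.6, 49.1 and 48.8 CPM in BMSCs-OE-FNDC5, against 52.9, 46.2 and 52.5 CPM in BMSCs-OE-NC (log2 fold change -0.07 ± 0.06, edgeR adjusted p = 0.3). The groups did not overlap for Sec23a and did overlap for Sec23b.

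All 4 Sec24 forms were lower under TMM scaling, although Sec24c turned with the length trend removed. Sec24a was low in both groups, with 2.45, 2.59 and 2.98 CPM in BMSCs-OE-FNDC5, against 6.98, 8.17 and 7.43 CPM in BMSCs-OE-NC (log2 fold change -1.49 ± 0.16, edgeR adjusted p = 6.2e-06). Sec24b had 16.5, 18.1 and 20.4 CPM in BMSCs-OE-FNDC5, against 29.4, 29.2 and 27.7 CPM in BMSCs-OE-NC (log2 fold change -0.65 ± 0.09, edgeR adjusted p = 4.5e-05). The libraries of the groups stayed apart for both, but Sec24b did not pass the test with the length trend removed (-0.08).

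Sec24d had 64.7, 65.9 and 66.6 CPM in BMSCs-OE-FNDC5, against 107, 107 and 106 CPM in BMSCs-OE-NC (log2 fold change -0.70 ± 0.04, edgeR adjusted p = 9.6e-09). Sec24c had 100.5, 99.8 and 110.4 CPM in BMSCs-OE-FNDC5, against 111, 121 and 114 CPM in BMSCs-OE-NC (log2 fold change -0.16 ± 0.05, edgeR adjusted p = 0.012), turned to 0.39 with the length trend removed, and missed the threshold without replicate 1 or without replicate 2 of BMSCs-OE-FNDC5 (edgeR adjusted p = 0.052 and 0.051). Sec23ip, a partner of Sec23, had a log2 fold change of -1.08 and was lower in each setting. Sec16a, the scaffold of ER exit sites and the longest member at 8889 bases, had -0.60, which turned to 0.37 with the length trend removed. Its relative Sec16b stood at 1.79 to 2.80 CPM and did not pass the test.

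Sec22b, a SNARE of the route between ER and Golgi, had 70.7, 82.4 and 76.4 CPM in BMSCs-OE-FNDC5, against 99.4, 96.5 and 96.8 CPM in BMSCs-OE-NC (log2 fold change -0.35 ± 0.05, edgeR adjusted p = 8.4e-05). Its relative Sec22a had 27.2, 25.5 and 29.4 CPM in BMSCs-OE-FNDC5, against 21.7, 19.4 and 20.5 CPM in BMSCs-OE-NC (log2 fold change 0.42 ± 0.08, edgeR adjusted p = 0.00076). The groups did not overlap in either. Sec22c had 4.57 to 8.93 CPM and did not pass the test.

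The p24 proteins, which carry cargo between ER and Golgi and are named by subfamily, gave 3 higher and 3 lower among 8 tested. Of all genes tested, 36.9% were higher and 38.8% lower. The γ subfamily held the members farthest apart. Tmed1 had 186, 188 and 187 CPM in BMSCs-OE-FNDC5, against 93.3, 90.9 and 81.9 CPM in BMSCs-OE-NC (log2 fold change 1.07 ± 0.05, edgeR adjusted p = 2.4e-09), and it overlaps Dnm2 on the opposite strand, which had a mean of 2331 counts per library against 2288 for Tmed1 and a log2 fold change of 0.19. Without a known strand setting, reads in the stretch shared by Tmed1 and Dnm2 cannot be told apart. The extent of that stretch was not measured. Tmed3, also of the γ subfamily, was higher at 0.65.

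Tmed5 of the same subfamily fell to 3.17, 2.46 and 3.31 CPM in BMSCs-OE-FNDC5, against 8.30, 8.97 and 7.48 CPM in BMSCs-OE-NC (log2 fold change -1.47 ± 0.17, edgeR adjusted p = 1e-05). Tmed7 had a log2 fold change of -1.32. At 921 bases, Tmed5 was the only one of the 20 shortest tested members that fell, and with the length trend removed it had the largest fall of the members (-1.93). Tmed6 and Tmed11 were at 0 in every library, and Tmed8 stayed at or below 1.06 CPM and was not tested.

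The α member Tmed9 was the most abundant p24 protein per length, with 506, 503 and 485 CPM in BMSCs-OE-FNDC5, against 358, 367 and 364 CPM in BMSCs-OE-NC (log2 fold change 0.46 ± 0.03, edgeR adjusted p = 4e-08). Tmed10 (δ) and Tmed2 (β), the core p24 pair, changed little. Tmed10 had 319.6, 302 and 316 CPM in BMSCs-OE-FNDC5, against 327, 312 and 336 CPM in BMSCs-OE-NC (log2 fold change -0.06 ± 0.03, edgeR adjusted p = 0.17), and Tmed2 had 406, 382 and 411 CPM in BMSCs-OE-FNDC5, against 442, 424 and 429 CPM in BMSCs-OE-NC (log2 fold change -0.11 ± 0.03, edgeR adjusted p = 0.0093). The groups overlapped for Tmed10 and did not for Tmed2, which missed the threshold without replicate 2 of BMSCs-OE-FNDC5 (log2 fold change -0.08, edgeR adjusted p = 0.051). Tmed4, another α member, had a log2 fold change of 0.10 and did not pass the test.

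**Figure D3:**
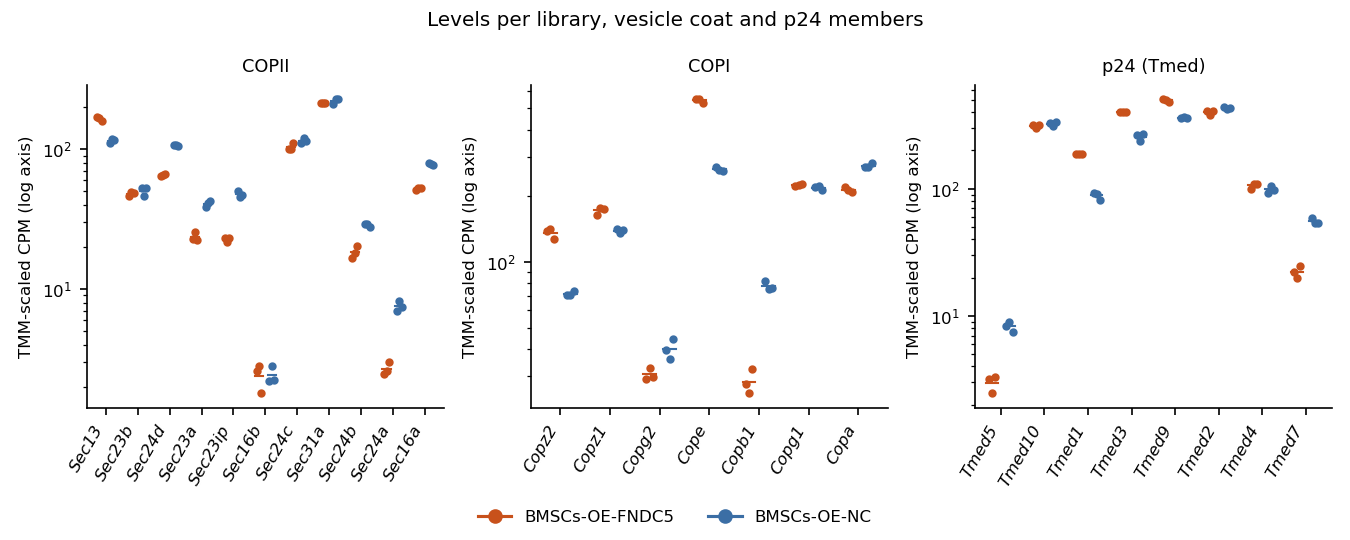
TMM-scaled CPM on a log axis in each library of BMSCs-OE-FNDC5 (orange, left of each pair) and BMSCs-OE-NC (blue, right) for tested COPII, COPI and p24 members, ordered from short to long, with lines at the group mean. Cope sits at 531 to 551 CPM in BMSCs-OE-FNDC5 and 259 to 269.9 CPM in BMSCs-OE-NC, and Copb1 at 25.0 to 32.2 CPM in BMSCs-OE-FNDC5 and 74.7 to 81.9 CPM in BMSCs-OE-NC.

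The subunits of the COPI coat form a single complex, but their mRNAs moved both ways. Under TMM scaling 3 of 7 tested members were higher, 3 were lower and 1 did not pass the test. Of all genes tested, 36.9% were higher and 38.8% lower. With the length trend removed 5 COPI members were higher and 2 lower, where 38.4% and 33.5% of all genes were. Cope (ε) had 551, 549 and 531 CPM in BMSCs-OE-FNDC5, against 269.9, 261 and 259 CPM in BMSCs-OE-NC (log2 fold change 1.05 ± 0.03, edgeR adjusted p = 7e-11). Copb1 (β, ENSRNOG00000057623) had 27.7, 25.0 and 32.2 CPM in BMSCs-OE-FNDC5, against 81.9, 74.7 and 75.9 CPM in BMSCs-OE-NC (log2 fold change -1.45 ± 0.08, edgeR adjusted p = 1.8e-08). Both held with the length trend removed (1.32 and -1.12), and these genes are of like length, at 3086 and 3332 bases. Cope was thus the only member past the fold threshold in the upward direction that is longer than 1330 bases.

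Copa (α), the partner of Cope within the coat, had a log2 fold change of -0.36, which turned to 0.17 with the length trend removed. Copg1 (γ) had 221, 225 and 226 CPM in BMSCs-OE-FNDC5, against 219.8, 221 and 212 CPM in BMSCs-OE-NC (log2 fold change 0.04 ± 0.03, edgeR adjusted p = 0.21), which turned to -0.33 under library-size scaling. Its paralog Copg2 had 29.2, 32.7 and 29.7 CPM in BMSCs-OE-FNDC5, against 39.6, 35.8 and 44.1 CPM in BMSCs-OE-NC (log2 fold change -0.38 ± 0.08, edgeR adjusted p = 0.0012). Copz1 (ζ) had 163, 176 and 174 CPM in BMSCs-OE-FNDC5, against 140.3, 135 and 139.9 CPM in BMSCs-OE-NC (log2 fold change 0.31 ± 0.04, edgeR adjusted p = 1.7e-05), which became -0.06 under library-size scaling. Its paralog Copz2 had 138, 142 and 127 CPM in BMSCs-OE-FNDC5, against 70.4, 70.1 and 73.5 CPM in BMSCs-OE-NC (log2 fold change 0.92 ± 0.05, edgeR adjusted p = 9.5e-09). The groups did not overlap in any of the 7 COPI members, and they did not overlap in 78.3% of all genes tested.

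The Copb1 promoter is shown because it held a UPRE, on the opposite strand and spanning the start site from 6 bases before it to base 2 after it, with the match in capitals (chr1:177872791-177873090, minus strand, GRCr8).

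Copb1: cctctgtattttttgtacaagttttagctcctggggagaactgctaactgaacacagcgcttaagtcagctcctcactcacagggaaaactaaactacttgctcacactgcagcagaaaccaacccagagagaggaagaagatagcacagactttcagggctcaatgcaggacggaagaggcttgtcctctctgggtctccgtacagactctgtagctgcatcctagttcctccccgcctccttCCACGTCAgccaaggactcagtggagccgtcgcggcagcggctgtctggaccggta

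UPRE was present in 4 of the 54 tested members with a promoter and in 0.637% of all promoters. The others were Copa, 31 to 38 bases after the start, Sec23a, 91 to 84 bases before it, and Srp19, 155 to 148 bases before it. Of these 4 genes, Copb1, Sec23a and Copa were lower and Srp19 did not pass the test. Across all 86 tested genes with the match, 31 were higher and 42 lower, where 36.9% and 38.8% of all genes tested were. The GC box GGGCGG, the core letters of Sp-family sites, was in 36 of the 54 (66.7%) and in 34.9% of all promoters. These are unlike sets, since all promoters include those of genes not tested here, and this holds for UPRE as well. No share was computed for tested genes alone. The GC box was in 13 of 19 members that were higher (68.4%), in 16 of 22 that were lower (72.7%) and in 7 of 13 that did not pass the test (53.8%).

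Gene length ran along with the direction of change. Across the 62 tested members, which are not independent replicates and share the same 6 libraries, the Spearman coefficient between length and log2 fold change was -0.60, against -0.44 across all 12104 genes tested. Of the 20 shortest tested members (443 to 1635 bases), 14 were higher and 1 was lower, with a median of 0.43. Of all genes in that range of length 56.1% were higher and 17.5% lower, with a median of 0.45. Of the 22 in the middle (1738 to 3086 bases), 5 were higher and 12 lower, with a median of -0.12. Among all genes of like length 37.2% were higher and 37.0% lower, with a median of -0.02. Of the 20 longest (3332 to 8889 bases), 1, Srp68, was higher and 16 were lower, with a median of -0.76, where 16.4% of all genes of like length were higher and 63.5% lower, with a median of -0.58.

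With each library's trend of counts with gene length removed, the correlation was -0.04 across the members, and 22 members were higher and 29 lower, where 38.4% and 33.5% of all genes were. The median was -0.08 for the members and 0.03 for all genes. Cope (1.32) and Srp68 (1.12) then had the largest rises, and Tmed5, Sec62, Copb1 and Pdia3 had falls past a log2 fold change of 1 (-1.93, -1.17, -1.12 and -1.02). Of the short subunits, Sec61g (0.62), Ssr4 (0.70), Sec61b (0.21) and Ssr2 (0.26) were still higher, by less than before. The cause of the relation with gene length was not tested.

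**Figure D4:**
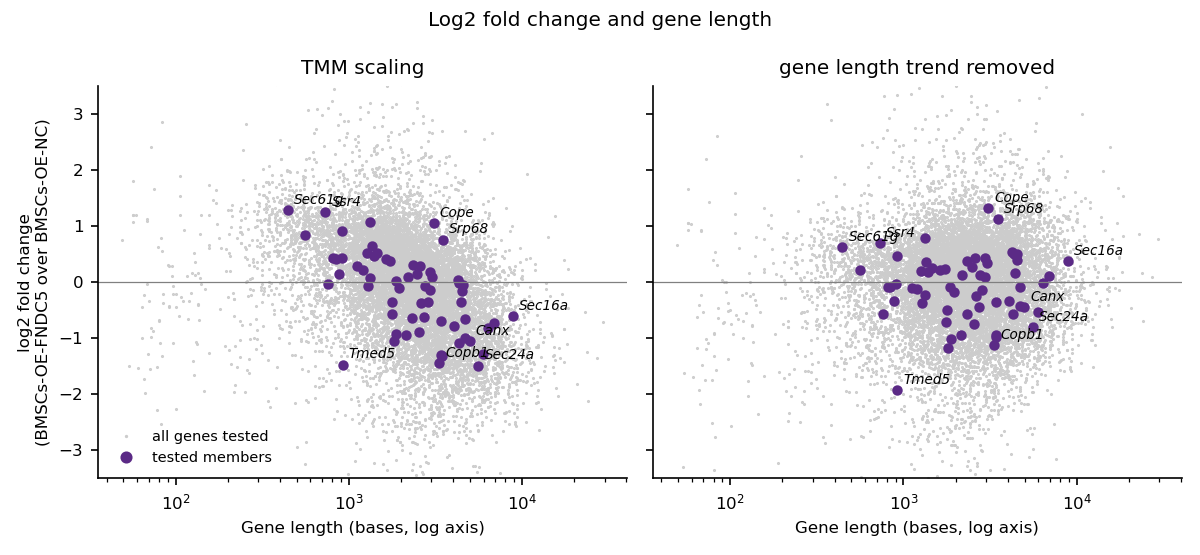
Log2 fold change of BMSCs-OE-FNDC5 over BMSCs-OE-NC against gene length in bases (log axis) for all genes tested (grey) and the tested members (purple), under TMM scaling on the left and with each library's length trend removed on the right. The y axis is limited to 3.5 in either direction. Spearman's correlation across the members is -0.60 on the left and -0.04 on the right, and Cope, Tmed5 and Copb1 stay away from 0 on both sides.

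Ratios of related members within a library do not depend on how libraries are scaled. Of 12 pairs listed, 10 could be compared, and in 9 the groups did not overlap, each with p = 0.1 by a two-sided exact permutation test of the 6 libraries and 0.111 after Benjamini-Hochberg adjustment over the 10 pairs. That is the smallest p that 3 against 3 libraries can give, so no pair could pass 0.05. The groups did not overlap in 78.3% of all single genes tested, and the share among gene pairs in general was not computed. The log2 ratio of Calr to Canx, the soluble to the membrane-bound lectin, was 3.38, 3.38 and 3.36 in BMSCs-OE-FNDC5, against 2.32, 2.30 and 2.27 in BMSCs-OE-NC, a difference of 1.08 that became 0.36 with the length trend removed. The log2 ratio of Ssr1 to Ssr2 was -2.82, -2.85 and -2.85 in BMSCs-OE-FNDC5, against -1.68, -1.69 and -1.75 in BMSCs-OE-NC, a difference of -1.14 that became -0.70. In both pairs the spread within a group was small beside the difference.

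Among paralogs, the log2 ratio of Sec24a to Sec24b was -2.70, -2.75 and -2.73 in BMSCs-OE-FNDC5, against -2.06, -1.82 and -1.88 in BMSCs-OE-NC (difference -0.81). The ratio of Sec23a to Sec23b was -1.03, -0.94 and -1.11 in BMSCs-OE-FNDC5, against -0.46, -0.16 and -0.30 in BMSCs-OE-NC (difference -0.72), and that of Sec24d to Sec24c was -0.63, -0.60 and -0.73 in BMSCs-OE-FNDC5, against -0.05, -0.18 and -0.10 in BMSCs-OE-NC (difference -0.54). In these 3 COPII pairs the form named first lost ground to the other. With the length trend removed the differences were -0.68, -0.45 and -0.74.

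The groups did not overlap in 4 further ratios of paralogs. The ratio of Sec61a1 to Sec61a2 differed by 0.45, that of Copg1 to Copg2 by 0.42, that of Sec11a to Sec11c by -0.20 and that of Copz1 to Copz2 by -0.62. With the length trend removed, the differences for Sec61a1 to Sec61a2 and Copg1 to Copg2 were 0.85 and 0.77, and those for Sec11a to Sec11c and Copz1 to Copz2 were -0.04 and -0.08. The ratio of Tmed10 to Tmed2 overlapped between the groups (difference 0.06, exact permutation p = 0.2), and its sign turned with the length trend removed (-0.20).

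**Figure D5:**
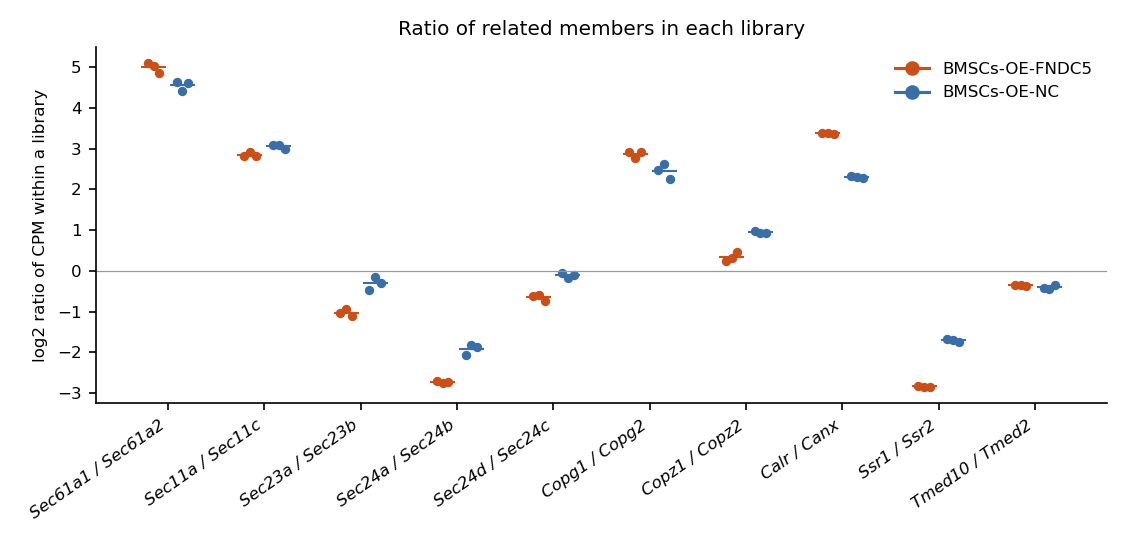
Log2 ratio of CPM of the first to the second named gene within each library, for BMSCs-OE-FNDC5 (orange, left) and BMSCs-OE-NC (blue, right), with lines at the group mean. The groups are apart in 9 of the 10 pairs, farthest for Ssr1 to Ssr2 and Calr to Canx, and they overlap for Tmed10 to Tmed2.

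Summed levels differed less than single members. The 68 rows together gave 14207 ± 151 CPM in BMSCs-OE-FNDC5 and 13701 ± 202 CPM in BMSCs-OE-NC (SD, n = 3 each), but as a share of raw counts the order was the other way, at 1.25% in BMSCs-OE-FNDC5 and 1.56% in BMSCs-OE-NC. The translocon members summed to 2395 ± 36.8 CPM in BMSCs-OE-FNDC5 and 1725 ± 39.9 CPM in BMSCs-OE-NC, and were also the larger share of raw counts in BMSCs-OE-FNDC5 (0.211% against 0.196%). The folding genes summed to 6511 ± 97.6 CPM in BMSCs-OE-FNDC5 and 7186 ± 126 CPM in BMSCs-OE-NC, and the COPII genes to 719.5 ± 5.16 CPM in BMSCs-OE-FNDC5 and 817 ± 13.6 CPM in BMSCs-OE-NC. The last 2 groups were lower on both of these scales. In summed FPKM the folding genes were again lower, at 2986 ± 45.7 in BMSCs-OE-FNDC5 and 3241 ± 63.8 in BMSCs-OE-NC. The COPII genes were higher in summed FPKM, at 259 ± 2.31 in BMSCs-OE-FNDC5 and 249 ± 4.85 in BMSCs-OE-NC. The p24 members summed to 1932 ± 22.2 CPM in BMSCs-OE-FNDC5 and 1629.6 ± 23.4 CPM in BMSCs-OE-NC, with the order turned in raw counts (0.170% in BMSCs-OE-FNDC5 against 0.185% in BMSCs-OE-NC).

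Partners of the same route that the names do not cover were listed for 114 symbols, of which 104 were in the table and 102 were tested. Of these, 51 were higher (background 36.9%), 36 were lower (35.3%, background 38.8%) and 15 did not pass the test, with a median of 0.15. Under library-size scaling 35 were higher and 59 lower, where 22.0% and 55.4% of all genes were, with a median of -0.22. The tail-anchor insertion genes, which place proteins with a C-terminal anchor in the ER membrane, were higher in 6 of 7 with none lower (4 higher and 0 lower under library-size scaling), including Ubl4a (1.24), Get4 (0.83) and Sgta (0.77). The ER membrane complex, an insertase, was higher in 6 of 9 and lower in 1 (5 and 4 under library-size scaling), with Emc6 at 1.06, Emc8 at 0.69 and Emc10 at 0.55. Oligosaccharyltransferase, which attaches sugars to entering chains, was higher in 6 of 10 and lower in 4 (4 and 6 under library-size scaling), with its small subunits Ost4 (0.92), Dad1 (0.93) and Krtcap2 (0.70) higher. The 4 lower genes, named after their values were seen, were Magt1 (-1.39), Stt3b (-0.64), Rpn2 (-0.38) and Tusc3 (-0.30). All 4 were still lower under library-size scaling and with the length trend removed (-0.86, -0.19, -0.25 and -0.28).

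ER chaperones and folding enzymes were lower in 10 of 19 and higher in 6 (16 lower and 2 higher under library-size scaling). Beside these and the next counts, 38.8% of all genes tested were lower and 36.9% higher (55.4% and 22.0% under library-size scaling). Hsp90b1 (GRP94) fell to 299.5, 286 and 314 CPM in BMSCs-OE-FNDC5, against 713, 674 and 679 CPM in BMSCs-OE-NC (log2 fold change -1.20 ± 0.04, edgeR adjusted p = 1.8e-10), and Hspa5 (BiP), the chaperone that holds the UPR sensors inactive, fell to 897, 905 and 885 CPM in BMSCs-OE-FNDC5, against 1402, 1375 and 1360.4 CPM in BMSCs-OE-NC (log2 fold change -0.62 ± 0.02, edgeR adjusted p = 4.6e-10). Uggt1, which marks misfolded glycoproteins for another round of calnexin binding, had -1.07, which became -0.09 with the length trend removed and did not pass the test. Manf (0.83) and Sdf2l1 (0.79) of this list, added after the values were seen, were higher. They stood at 0.33 and 0.38 with the length trend removed, and at 0.46 and 0.42 under library-size scaling. The ERAD list was split, 6 of 15 higher and 6 lower (3 and 8 under library-size scaling), with Derl1 (0.61), Derl2 (0.84) and Selenos (0.65) higher. Its largest change, added here after the values were seen, was the fall of Edem3, which helps trim mannose from misfolded glycoproteins. Edem3 had -2.27, and -1.94 with the length trend removed. Erlec1 (-0.75) and Edem1 (-0.63), likewise added after the values were seen, were lower too. On the same list Edem2 (0.41) and Man1b1 (0.44), also added after the values were seen, were higher. Edem2 and Man1b1 stood at 0.32 and 0.83 with the length trend removed. Neither passed the test under library-size scaling (0.04 and 0.07). On the PERK and IRE1 branch list, 4 of 7 were higher and 3 lower (3 and 4 under library-size scaling). Ddit3 (CHOP) had 50.5, 49.4 and 46.0 CPM in BMSCs-OE-FNDC5, against 27.1, 24.5 and 24.7 CPM in BMSCs-OE-NC (log2 fold change 0.94 ± 0.06, edgeR adjusted p = 1.2e-07), and its target Trib3 had 1.85 and Ppp1r15a (GADD34) 0.55. The 3 lower genes, also named after their values were seen, were Eif2ak3 (PERK itself, -0.91) and the proteases that cut Atf6, Mbtps1 (-0.32) and Mbtps2 (-0.61), of which Mbtps1 turned to 0.19 and Mbtps2 to 0.14 with the length trend removed. The remaining higher gene, Atf4 (0.19), also named after its values were seen, had 0.12 with the length trend removed but -0.18 under library-size scaling. Ddit3, Trib3 and Ppp1r15a were higher in every alternative run, and Hspa5, Hsp90b1 and Atf6 were lower in every alternative run. Whether these differences belong together was not tested.

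The COPII assembly list was higher in 5 of 8 and lower in 3 (2 and 6 under library-size scaling), with Trappc3 at 1.09, the tether Uso1 at -1.07 and Mia2 at -1.08. Of all genes tested, 36.9% were higher and 38.8% lower (22.0% and 55.4% under library-size scaling). The COPI assembly list was higher in 4 of 7 and lower in 3, with Arfgap2 at 0.76, Arfgap3 at 0.74 and the δ subunit Arcn1 at -0.79. Of the cargo receptors and SNAREs, 8 of 19 were higher and 5 lower (8 and 11 under library-size scaling), led by the SNARE Use1 at 551, 548 and 519 CPM in BMSCs-OE-FNDC5, against 171, 172 and 168 CPM in BMSCs-OE-NC (log2 fold change 1.66 ± 0.03, edgeR adjusted p = 4.7e-12). Lman2 (0.79) and Ergic3 (0.75), which cycle between ER and Golgi, were higher as well. Srpra, the receptor of the signal recognition particle, was lower (-0.28).

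Of the Sec14-like rows, Sec14l1 had 44.2, 46.9 and 46.2 CPM in BMSCs-OE-FNDC5, against 53.0, 49.7 and 48.4 CPM in BMSCs-OE-NC (log2 fold change -0.14 ± 0.05, edgeR adjusted p = 0.03), which turned to 0.10 with the length trend removed. It missed the threshold without replicate 1 or 3 of BMSCs-OE-FNDC5 or replicate 1 of BMSCs-OE-NC (edgeR adjusted p = 0.11, 0.067 and 0.098). Sec14l2, with 4.70 to 8.81 CPM, did not pass the test. Sec14l3 stayed at or below 0.246 CPM, Sec14l5 was at 0 in every library, and neither was tested. Without the 4 Sec14-like rows, 60 of 64 members were tested, 20 were higher and 28 lower.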

How the data were processed

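RNA was sequenced from 3 libraries each of BMSCs-OE-FNDC5 and BMSCs-OE-NC. The authors deposited gene counts and FPKM, and the submitters' notes name HTSeq 0.6.0, the aligners HISAT2 2.1.0, Bowtie2 2.2.3 and TopHat2, and also CASAVA and DESeq2. The notes also name a mouse build and the extraction of retinas, but 32883 rows carry rat identifiers and 0 mouse, and retina markers were at most 0.101 CPM. The rat build and strand setting are not given in the sources used here.

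Groups were compared on the counts with edgeR 4.0.16 under R 4.3.3 (filterByExpr, minimum count 10 and minimum total 15, TMM, quasi-likelihood test, group as the only term), with Benjamini-Hochberg adjustment over 12104 genes. SE is the log2 fold change divided by the square root of F. Ratios used log2 CPM with a prior count of 2. The members, roles, partner lists and tests were chosen with earlier results of these data known. Values per library were given for Xbp1, Ern1, Atf6, Sel1l, the paired genes and, in each role, the member with the highest FPKM and the largest rise and fall at 5 CPM or more, with up to 3 partners per list. Ssr4, chosen after its values were seen, was added. In each partner list, named genes were those with the smallest p, apart from those stated as added or named after their values were seen.

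Alternatives were DESeq2 1.42.0, limma-voom and limma-trend on log2(FPKM + 1) and log2(FPKM + 0.1) with limma 3.58.1, RLE, upper-quartile and library-size scaling, no filter, at least 10 counts in every library, the replicate block, each library left out, and an offset from each library's lowess trend (span 0.3) of log2 counts with gene length. The procedure was tested on simulated data. Promoters were matched by symbol. Copb2 and Srp72 were not analysed here. Figures used Python 3.11.15 and matplotlib 3.10.9.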

Additional observations from a re-analysis of the deposited data

How the results depend on the processing

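Across 18 alternatives, 34 of 62 tested members held their call and direction in each. Leaving out 1 library at a time changed the call of 10 members, lost for Spcs1, Sec24c, Tmed2 and Sec14l1 and gained for Sec23b, Sec31a and Tmed10 without a library of BMSCs-OE-NC, for Sec22c and Sec14l2 without replicate 1 of BMSCs-OE-FNDC5 and for Tmed4 without either replicate 1 of BMSCs-OE-FNDC5 or replicate 2 of BMSCs-OE-NC. It gave 20 to 23 members higher, 27 to 31 lower, 4 to 4 higher and 9 to 10 lower past the fold threshold, and 50 to 52 partner genes higher and 35 to 36 lower. Scaling by library size alone gave 11 members higher, 0 higher and 19 lower past the fold threshold, and 59 partner genes lower, and 79.6% of called members were then lower, against 59.2% under TMM. Removal of the gene length trend gave 2 members higher and 4 lower past the fold threshold, with or without the replicate block, and upper-quartile scaling, which moved the median of all genes by -0.10, gave 2 higher past it. The cause of these changes was not tested.

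Some log2 fold changes that passed the threshold under TMM scaling or under the alternative changed sign. With the length trend removed these were Srp9 (-0.22), Sec11a (-0.12), Sec11c (-0.08), Spcs1 (-0.33), Calr (-0.08), Ern1 (0.11), Xbp1 (-0.10), Sec16a (0.37), Sec24c (0.39), Sec31a (0.50), Copa (0.17) and Sec14l1 (0.10), and the ratio of Tmed10 to Tmed2 (-0.20). With the replicate block and the length trend removed together they were Srp9 (-0.22), Sec11a (-0.12), Sec11c (-0.08), Spcs1 (-0.33), Calr (-0.08), Ern1 (0.11), Xbp1 (-0.10), Sec16a (0.38), Sec24c (0.39), Sec31a (0.50), Copa (0.17) and Sec14l1 (0.10). Under library-size scaling they were Srp9 (-0.29), Sec61a1 (-0.28), Sec11a (-0.15), Spcs1 (-0.22), Spcs2 (-0.18), Calr (-0.35), P4hb (-0.22), Xbp1 (-0.08), Tmed4 (-0.27), Copg1 (-0.33) and Copz1 (-0.06). Under upper-quartile scaling they were Sec61a1 (-0.02) and Calr (-0.08).

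The replicate numbers gave no pairing, since deviations of same-numbered libraries correlated at -0.014 to 0.021 and not every library correlated best with its own number. With the replicate block, 23 members were higher and 29 lower. Members at a few CPM, such as Sec24a and Tmed5, rest on few counts per library, and differences in Sec31b, Tmed8 and Sec14l3 were not detectable at this depth. Each group had 3 libraries, whose origin from separate rats or cultures is not given.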
